A study of Mus musculus with 16 samples.

Results

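Axon guidance genes are described here: 52 genes encoding 6 families of ligands and receptors, out of 41388 genes counted in each library. They comprise 10 Eph receptors, 7 ephrins, 12 semaphorins, 8 plexins and neuropilins, 6 slits and robos, and 9 netrins and netrin receptors. They were chosen by name from these families, with earlier results of these data known. Other members of the same families are not among the 52, so the counts below describe this list and not the whole families. The libraries came from cortical neurons of Swiss Webster mouse embryos (embryonic day 16), grown in primary culture, transduced with lentivirus at day 5 in vitro and harvested for RNA at day 10. Each culture received 1 virus for exon 1 of huntingtin (Htt) and 1 virus for a short hairpin RNA (shRNA). The 25Q control group received exon 1 with 25 glutamines and the luciferase shRNA. The 72Q control group received exon 1 with 72 glutamines, a length of the kind found in Huntington disease, and the same luciferase shRNA. The remaining 2 groups received the 72-glutamine exon with Twist1 shRNA 1 or with Twist1 shRNA 2. Each group had 4 libraries, 1 from each experiment (labelled exp107, exp108, exp109a, exp109b). All groups therefore carry an exon 1 virus and a hairpin virus, and untransduced cultures and Twist1 hairpins with the 25-glutamine exon are not analysed here. The labels do not say that the experiments were separate cultures, and exp109a and exp109b share a number. The p-values therefore measure the spread between these libraries.

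Guidance cues are secreted or membrane-bound proteins that attract or repel the growth cone, the motile tip of a growing axon. Ephrins signal to Eph receptor tyrosine kinases on contact, semaphorins signal through plexins with or without neuropilins, slits repel through robos, and netrins attract through Dcc and repel through Unc5 receptors. In developing cortex these families steer callosal, corticospinal and thalamocortical axons and neuronal migration, and many stay expressed at synapses afterwards. Twist1 is a basic helix-loop-helix transcription factor of mesoderm and neural crest.

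Library totals ranged from 15814525 to 19533034 counts. All 52 genes passed the filter on low counts, which kept 15103 genes. Levels are given as CPM (each count relative to its library's total), scaled by trimmed mean of M-values (TMM) factors, in the library order exp107, exp108, exp109a, exp109b, and levels of different genes are compared only as RPKM, the CPM divided by the gene's length in kilobases. Calls are at an adjusted p under 0.05 from edgeR's quasi-likelihood test, fitted with the group and the experiment and with Benjamini-Hochberg adjustment over all tested genes. Twist1 itself, the hairpins' target, was at 0.271 ± 0.225 CPM with 25Q, 4.15 ± 0.763 with 72Q, 1.57 ± 0.452 with shRNA 1 and 1.64 ± 0.403 with shRNA 2 (mean ± SD, n = 4 each). The exp108 library had the lowest level of its group for 35 of the 52 guidance genes with 25Q, 38 with 72Q, 28 with shRNA 1 and 32 with shRNA 2.

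Most of the guidance genes were lower with 72Q than with 25Q. Of the 52, 38 fell (73.1%), 13 were not called and 1 rose (1.92%), where 27.8% of all tested genes fell and 29.3% rose. The median log2 fold change was -0.55 over the 52 genes and 0.03 over all tested genes. Regardless of sign, the median size of the change was 0.58 and 0.25, and 11 of the 38 fell at least 2-fold. In 29 of the 52 genes the 4 libraries of one group all lay outside the range of the other group. How many of all tested genes fell 2-fold or had ranges apart was not counted. Genes of every family fell: 9 of 10 Eph receptors, 7 of 8 plexins and neuropilins, 5 of 6 slits and robos, 5 of 7 ephrins, 6 of 9 netrins and netrin receptors and 6 of 12 semaphorins. The RPKM summed over the 8 plexins and neuropilins was 180 ± 20.2 with 25Q and 101 ± 21.2 with 72Q, and that over the 10 Eph receptors was 187 ± 8.00 and 111 ± 10.3 (mean ± SD, n = 4). Without scaling beyond library totals the median of all genes moved to 0.16, the guidance genes split into 9 higher and 35 lower, and all genes split into 6781 higher and 2952 lower against 4431 and 4197 with TMM. Without the 4 exp108 libraries 37 guidance genes fell and 1 rose, and 3899 of all genes fell and 3784 rose. In bulk libraries, fewer cells of a type and less RNA per cell cannot be told apart. Markers of neurons moved in the same direction: 6 of 10 pan-neuronal markers and 9 of 10 cortical glutamatergic markers fell and 1 of each rose. Their summed levels ranged from 9050 to 10300 and from 1470 to 1590 CPM with 25Q, and from 6420 to 7470 and from 708 to 945 CPM with 72Q. Of 10 inhibitory neuron markers 8 fell and 1 rose, while 5 of 10 astrocyte markers and 6 of 10 proliferating progenitor markers rose and none fell. Of 10 oligodendrocyte lineage markers 3 rose and 2 fell. Microglial, endothelial and meningeal markers summed to at most 20.7 CPM in any library, and none of the 30 was at 0 in every library. The mitochondrial share of counts was also apart, at 2.41 to 2.78% with 25Q against 3.16 to 3.59% with 72Q, as were the genes with a count, 20188 to 20426 against 20544 to 21306. The part that these or cell composition have in the fall of the guidance genes was not tested.

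**Figure D1:**
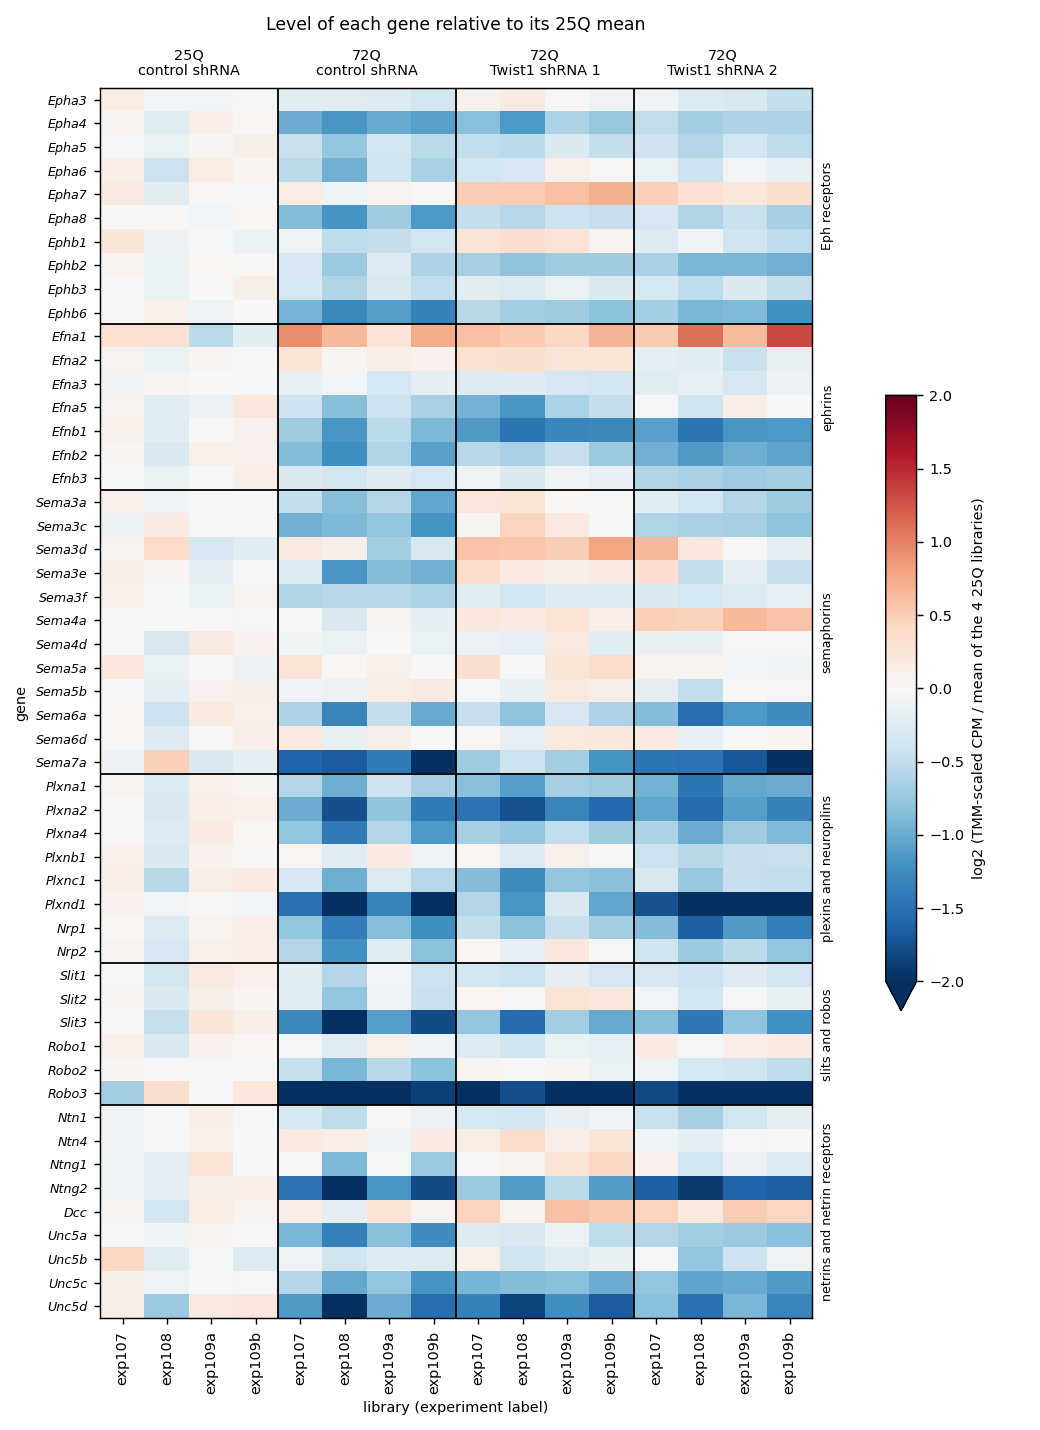
Level of each of the 52 guidance genes (rows, by family) in each of the 16 libraries (columns, by group and experiment) as log2 of TMM-scaled CPM over the gene's mean in the 4 25Q libraries; blue is lower and red is higher, and values under -2 share the darkest blue. Blue fills most rows in the 72Q control columns, where 38 genes were called lower, and thins in the Twist1 shRNA 1 columns.

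Against the same 72Q controls, Twist1 shRNA 1 went with higher levels of most guidance genes and shRNA 2 with higher levels of fewer. With shRNA 1, 30 of the 52 rose (57.7%, where 22.7% of all tested genes rose) and 6 fell (11.5%, where 23.6% of all fell). The median log2 fold change was 0.26 over the guidance genes and -0.01 over all genes, and the library ranges were apart for 22. With shRNA 2, 17 rose (32.7%, all genes 20.2%) and 8 fell (15.4%, all genes 21.5%), with a median of 0.03 against 0.00 over all genes. Ranges were apart for 10, and for neither hairpin were ranges apart counted over all tested genes. Both comparisons use the same 4 control libraries, and the comparison of 72Q with 25Q uses them too. Without the 4 exp108 libraries 29 rose and 6 fell with shRNA 1, and 16 rose and 9 fell with shRNA 2. Over all genes that setting gave 3038 higher and 3132 lower with shRNA 1, and 2782 and 3000 with shRNA 2. In a model without the experiment term 24 guidance genes rose and 1 fell with shRNA 1, and 10 rose and 6 fell with shRNA 2. Calls over all genes shrank too, to 2244 higher and 2317 lower with shRNA 1, against 3434 and 3565 with the term. With shRNA 2 they were 1691 and 1930. Without scaling beyond library totals the shRNA 2 split over all genes was 4380 higher and 2328 lower, against 3057 and 3250 with TMM, and 21 guidance genes were higher and 8 lower. Markers moved here too: 3 pan-neuronal markers rose and 1 fell with shRNA 1, 3 rose and 5 fell with shRNA 2, and 7 and 8 of 10 oligodendrocyte lineage markers fell. With shRNA 2, 6 astrocyte and 6 progenitor markers fell and none rose. Cortical glutamatergic markers summed to 971 to 1160 CPM with shRNA 1 and 762 to 922 with shRNA 2, but of the 10 markers 3 rose and 3 fell with shRNA 1, and 2 rose and 2 fell with shRNA 2. Mitochondrial counts made up 2.39 to 3.26% with shRNA 1, 2.10 to 2.78% with shRNA 2 and 3.16 to 3.59% in the 72Q controls. The part of these markers and of the mitochondrial share in the differences of the guidance genes was not tested.

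The 2 hairpins, both directed at Twist1, also differed from each other. With shRNA 1, 28 of the 52 were higher than with shRNA 2 (53.8%, all genes 27.3%) and 7 were lower (13.5%, all genes 25.9%), with a median log2 difference of 0.21 against 0.01 over all genes. Without the experiment term the counts were 18 and 3, and those over all genes were 2789 and 2715. Without scaling beyond library totals they were 24 and 9, and the split over all genes went from 4116 higher and 3914 lower to 2967 and 5164. Set against 25Q, the 72Q cultures with shRNA 1 had 9 guidance genes higher (17.3%, all genes 28.1%) and 29 lower (55.8%, all genes 29.4%), with a median of -0.24. Those with shRNA 2 had 5 higher (9.62%, all genes 31.4%) and 38 lower (73.1%, all genes 31.8%), with a median of -0.43. These comparisons and that of 72Q with 25Q share the 25Q libraries. The counts of shRNA 1 against 25Q depended on processing, with 18 higher and 25 lower without scaling, 16 and 26 with upper-quartile factors, and 6 higher without the exp108 libraries. All genes then split into 6217 higher and 3133 lower without scaling and 5528 and 3503 with upper-quartile factors, against 4237 and 4434 with TMM. Without the exp108 libraries all genes split into 3802 higher and 4136 lower. For shRNA 2 against 25Q the unscaled split was 8 and 30 guidance genes and 7617 and 2921 of all genes, against 4748 and 4808 of all genes with TMM, and upper-quartile factors gave 6070 and 3797.

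**Figure D2:**
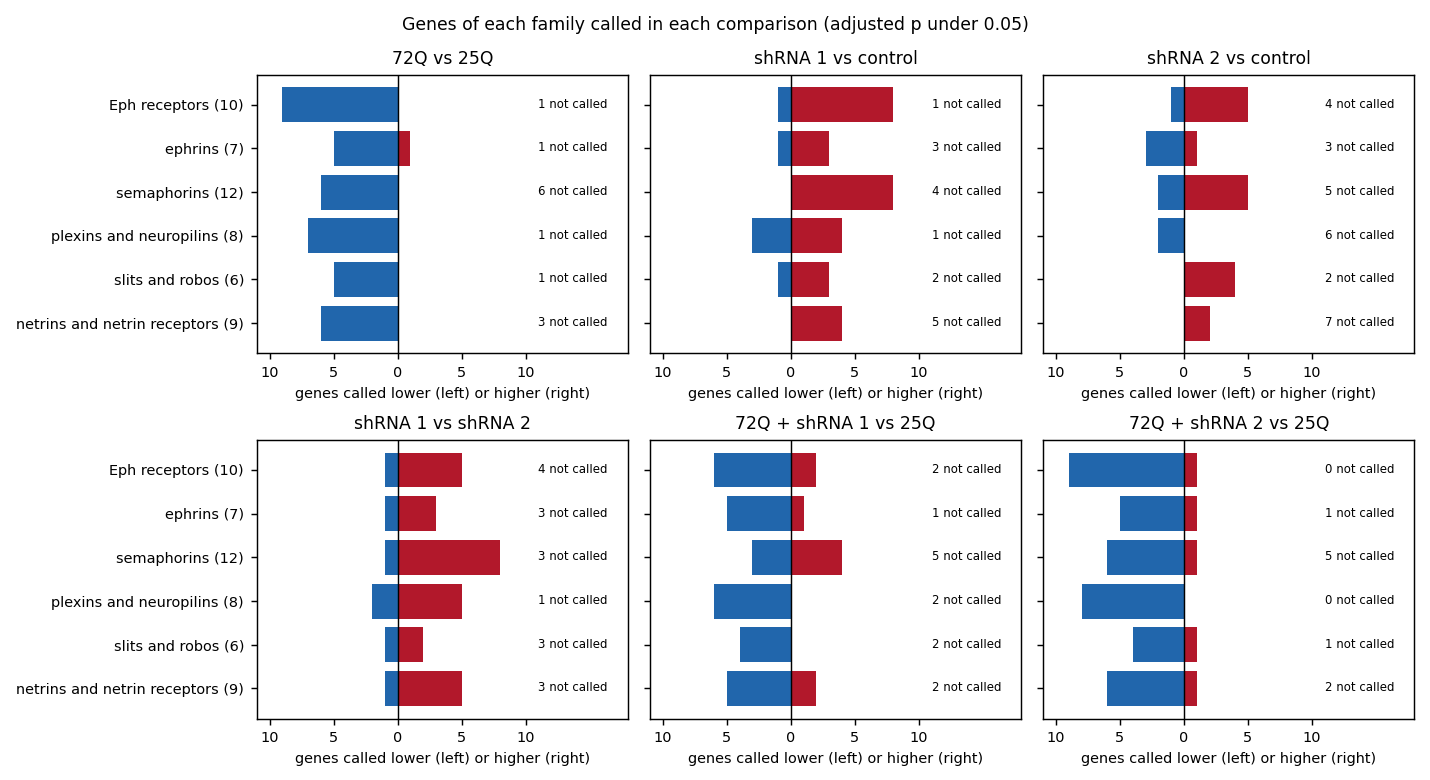
Number of genes in each family called lower (blue, to the left) and higher (red, to the right) in each of the 6 comparisons, at an edgeR adjusted p under 0.05; family sizes stand in parentheses and genes not called are counted at the right. The 72Q against 25Q panel holds 38 genes to the left and 1 to the right, and the panel of shRNA 1 against control holds 6 and 30.

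Twist1 binds the E-box CANNTG, with CATCTG and its reverse complement CAGATG among its preferred forms, so the promoters of the guidance genes were read for these 6 letters on both strands. RefSeq promoters on GRCm38.p6, each of 300 bases from 250 before to 50 after an annotated start, were held for 43 of the 52 genes, 54 promoters in all. The motif stood in 5 of the 54 (9.3%), in the genes Sema3c, Sema4a, Epha6, Ntng2 and Efna3, where 11.8% of the promoters of tested genes and 17.2% of all 32851 promoters held it. By gene it was 5 of 43 (11.6%), against 13.9% of tested genes and 19.2% of all genes. The share among guidance genes was therefore near that of tested genes. The median GC content was 64.2% for the guidance promoters and 60.7% for those of tested genes. The 250 bases before the start are shown for Sema3c, Sema4a and Epha6, which were called higher with each hairpin, and for Ntng2, among the genes lowest with 72Q, each 5′ to 3′ on the gene's strand with the motif in capitals. They lie at chr5:17574566-17574815 (plus strand), chr3:88459102-88459351 (minus), chr16:60605532-60605781 (minus) and chr2:29248100-29248349 (minus), and the motif begins 200, 150, 137 and 40 bases before the start. The Sema4a promoter is 1 of several that RefSeq gives for that gene. The windows of Sema3c, Sema4a and Ntng2 lie inside the gene spans counted here, which begin on the gene's strand at 17574281, 88461182 and 29253005. The Epha6 window lies just before its counted span, which begins at 60605531. The windows shown were picked by the calls of their genes. Efna3, whose window is not shown, was called lower with 72Q and was not called with either hairpin against 72Q. Most of the genes called higher with each hairpin are not among the 5 with the motif. A match is a run of letters and was not tested for binding here.
Sema3c: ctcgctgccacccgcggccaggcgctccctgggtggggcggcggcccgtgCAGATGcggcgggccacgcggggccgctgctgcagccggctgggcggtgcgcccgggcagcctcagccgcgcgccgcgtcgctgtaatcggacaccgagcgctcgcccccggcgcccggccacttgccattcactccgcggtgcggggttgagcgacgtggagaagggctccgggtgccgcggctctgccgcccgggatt
Sema4a: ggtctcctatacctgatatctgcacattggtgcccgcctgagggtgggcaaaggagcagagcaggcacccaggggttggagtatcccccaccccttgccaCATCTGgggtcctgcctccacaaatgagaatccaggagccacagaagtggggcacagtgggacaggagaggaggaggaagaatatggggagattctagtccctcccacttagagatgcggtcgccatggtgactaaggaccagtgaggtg
Epha6: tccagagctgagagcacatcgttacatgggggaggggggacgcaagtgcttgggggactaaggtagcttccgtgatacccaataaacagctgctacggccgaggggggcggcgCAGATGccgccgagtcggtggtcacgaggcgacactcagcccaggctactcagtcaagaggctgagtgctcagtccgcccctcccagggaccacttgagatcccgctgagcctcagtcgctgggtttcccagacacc
Ntng2: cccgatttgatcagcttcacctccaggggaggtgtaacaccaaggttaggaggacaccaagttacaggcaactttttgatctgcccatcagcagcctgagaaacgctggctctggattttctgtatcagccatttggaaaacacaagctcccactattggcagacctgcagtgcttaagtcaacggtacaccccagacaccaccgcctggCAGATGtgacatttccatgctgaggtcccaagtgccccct

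Among the Eph receptors, which are tyrosine kinases that bind ephrins on neighbouring cells, Ephb6 had the highest level at a mean of 32.2 RPKM over the 16 libraries, followed by Epha4 at 30.0 and Epha5 at 27.5, and Ephb1 had the lowest at 3.73. Ephb6 (chromosome 6, 41605482 to 41620509, plus strand, GRCm38) lacks kinase activity of its own. Its level was 188, 201, 175 and 185 CPM with 25Q and 98.4, 76.5, 87.0 and 73.0 with 72Q. All 72Q libraries were below those of 25Q, and the fitted log2 fold change was -1.17 ± 0.063 (SE; adjusted p = 7.96e-14). With shRNA 1 it was 127, 116, 114 and 106 CPM, above every control library, and with shRNA 2 it was 117, 99.2, 101 and 80.7 CPM, overlapping them. The log2 changes against 72Q were 0.47 ± 0.064 (adjusted p = 1.22e-06) and 0.25 ± 0.064 (adjusted p = 0.00318), the second not called without the experiment term (adjusted p = 0.0884). Both hairpin groups stayed below 25Q, by -0.70 ± 0.062 and -0.92 ± 0.063 on the log2 scale.

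Epha4, which binds ephrins of both classes and mediates repulsion of corticospinal axons at the midline, was at 369, 301, 390 and 367 CPM with 25Q and at 180, 159, 178 and 169 with 72Q, a fall of -1.05 ± 0.054. With shRNA 2 it was at 255, 224, 234 and 234 CPM (0.46 ± 0.053 against 72Q, adjusted p = 3.77e-08). With shRNA 1 it was at 199, 161, 230 and 212 CPM (0.22 ± 0.054, adjusted p = 0.00131, but 0.0819 without the experiment term). The difference of the 2 hairpins was -0.25 ± 0.053 for shRNA 1 minus shRNA 2 (adjusted p = 0.000275; 0.0564 without the experiment term). Epha8 went from 30.5 ± 0.799 CPM with 25Q to 15.6 ± 2.48 with 72Q and stood at 21.9 ± 0.902 and 21.5 ± 2.21 with the hairpins (mean ± SD, n = 4). Both hairpin groups lay between the control groups without overlap with either.

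Epha6 and Epha7 rose with each hairpin from different starting points. Epha6 was at 50, 34.2, 50.2 and 47.5 CPM with 25Q and 31.8, 23.5, 34.7 and 29.1 with 72Q, so that the low exp108 library of 25Q fell inside the 72Q range. It fell by 0.61 on the log2 scale (SE 0.070) and rose again by 0.48 ± 0.071 with shRNA 1 and 0.43 ± 0.070 with shRNA 2. Epha7 was not called between 72Q and 25Q (60.7 ± 4.28 and 59.0 ± 6.69 CPM, log2 difference 0.04 ± 0.061; called higher without scaling, adjusted p = 0.00852). It reached 83.8, 84.1, 89.8 and 96.7 CPM with shRNA 1 and 81.8, 71.7, 68.2 and 73.8 with shRNA 2, in both cases above every 72Q and every 25Q library. Ephb2, a synaptic B-class receptor, was called lower with 72Q and lower again with each hairpin against 72Q, at 170 ± 10.6 CPM with 25Q, 122 ± 18.5 with 72Q, 103 ± 3.99 with shRNA 1 and 94.2 ± 10.2 with shRNA 2. Its change with shRNA 1 (-0.24 ± 0.059, adjusted p = 0.00164) was -0.16 without the exp109a library of 72Q and had an adjusted p of 0.0559 without the experiment term. Epha3, Ephb1 and Ephb3 also rose with shRNA 1 (0.31 ± 0.052, 0.60 ± 0.081 and 0.22 ± 0.061) and were not called with shRNA 2 (-0.01 ± 0.052, 0.05 ± 0.084 and 0.03 ± 0.062). The differences between the hairpins were called for Epha3, Ephb1 and Ephb3, at 0.33 ± 0.052, 0.54 ± 0.080 and 0.19 ± 0.061. The Ephb3 difference was not called without the exp109b library of shRNA 2 (adjusted p = 0.0694), without scaling (0.157) or without the experiment term (0.075).

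Ephrins, the ligands of these receptors, included both the most abundant guidance gene per length and the single one called higher with 72Q. Efnb3, a transmembrane ligand of the midline, had a mean of 76.1 RPKM over the 16 libraries, where the other ephrins ranged from 0.728 (Efna1) to 23.2 (Efna3). Its level was 292, 266, 286 and 320 CPM with 25Q, 237, 225, 243 and 228 with 72Q, 272, 238, 276 and 261 with shRNA 1, and 191, 185, 175 and 181 with shRNA 2. The shRNA 2 libraries were below all others, and the difference between the hairpins was 0.51 ± 0.049 (shRNA 1 minus shRNA 2, adjusted p = 3.25e-10). Against 72Q the change was 0.16 ± 0.048 with shRNA 1 (adjusted p = 0.00614; 0.0636 without the experiment term) and -0.35 ± 0.049 with shRNA 2 (adjusted p = 8.09e-07). Efna1, an A-class ligand anchored in the membrane by a lipid, was at 1.1, 1.1, 0.613 and 0.762 CPM with 25Q and 1.71, 1.40, 1.07 and 1.5 with 72Q. The groups overlapped, and the rise of 0.60 ± 0.25 (adjusted p = 0.0243) was not called without the 25Q library of exp109b (adjusted p = 0.117) or exp109a (0.0659), without the 72Q library of exp107 (0.101), or by DESeq2 (0.0632).

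The B-class ephrin Efnb1 (chromosome X, 99136130 to 99148991, plus strand) was lower with 72Q and lower again with each hairpin. Its levels were 54.7, 43.5, 51.6 and 54.5 CPM with 25Q, 31.2, 22.9, 35.2 and 27.3 with 72Q, 23.2, 18.8, 20.7 and 21 with shRNA 1, and 24.2, 18.6, 22.9 and 23.0 with shRNA 2. The 25Q libraries lay above all 12 others, while the hairpin groups overlapped the lowest 72Q libraries. The log2 changes were -0.81 ± 0.065 for 72Q against 25Q, -0.47 ± 0.070 for shRNA 1 and -0.39 ± 0.069 for shRNA 2 against 72Q (adjusted p = 7.28e-12, 1.87e-06 and 3.28e-05). Efnb2, its close relative, fell with 72Q from 136 ± 16.9 to 71.6 ± 13.8 CPM (-0.93 ± 0.068), rose with shRNA 1 to 89.5 ± 7.13 (0.33 ± 0.069) and was not called with shRNA 2 at 66.6 ± 3.78 (-0.10 ± 0.069). Efna5, a repellent of retinal and cortical axons, showed the largest difference in favour of shRNA 2 of any guidance gene. It was at 8.28, 6.72, 7.30 and 9.27 CPM with 25Q, 5.91, 4.38, 5.88 and 5.01 with 72Q, 4.11, 3.53, 5.08 and 5.68 with shRNA 1, and 7.79, 5.96, 8.62 and 7.90 with shRNA 2. The hairpin groups did not overlap, and shRNA 1 minus shRNA 2 was -0.71 ± 0.12 (adjusted p = 5.58e-06). Against 25Q, Efna5 with shRNA 2 differed by -0.06 ± 0.11 on the log2 scale and was not called.

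**Figure D3:**
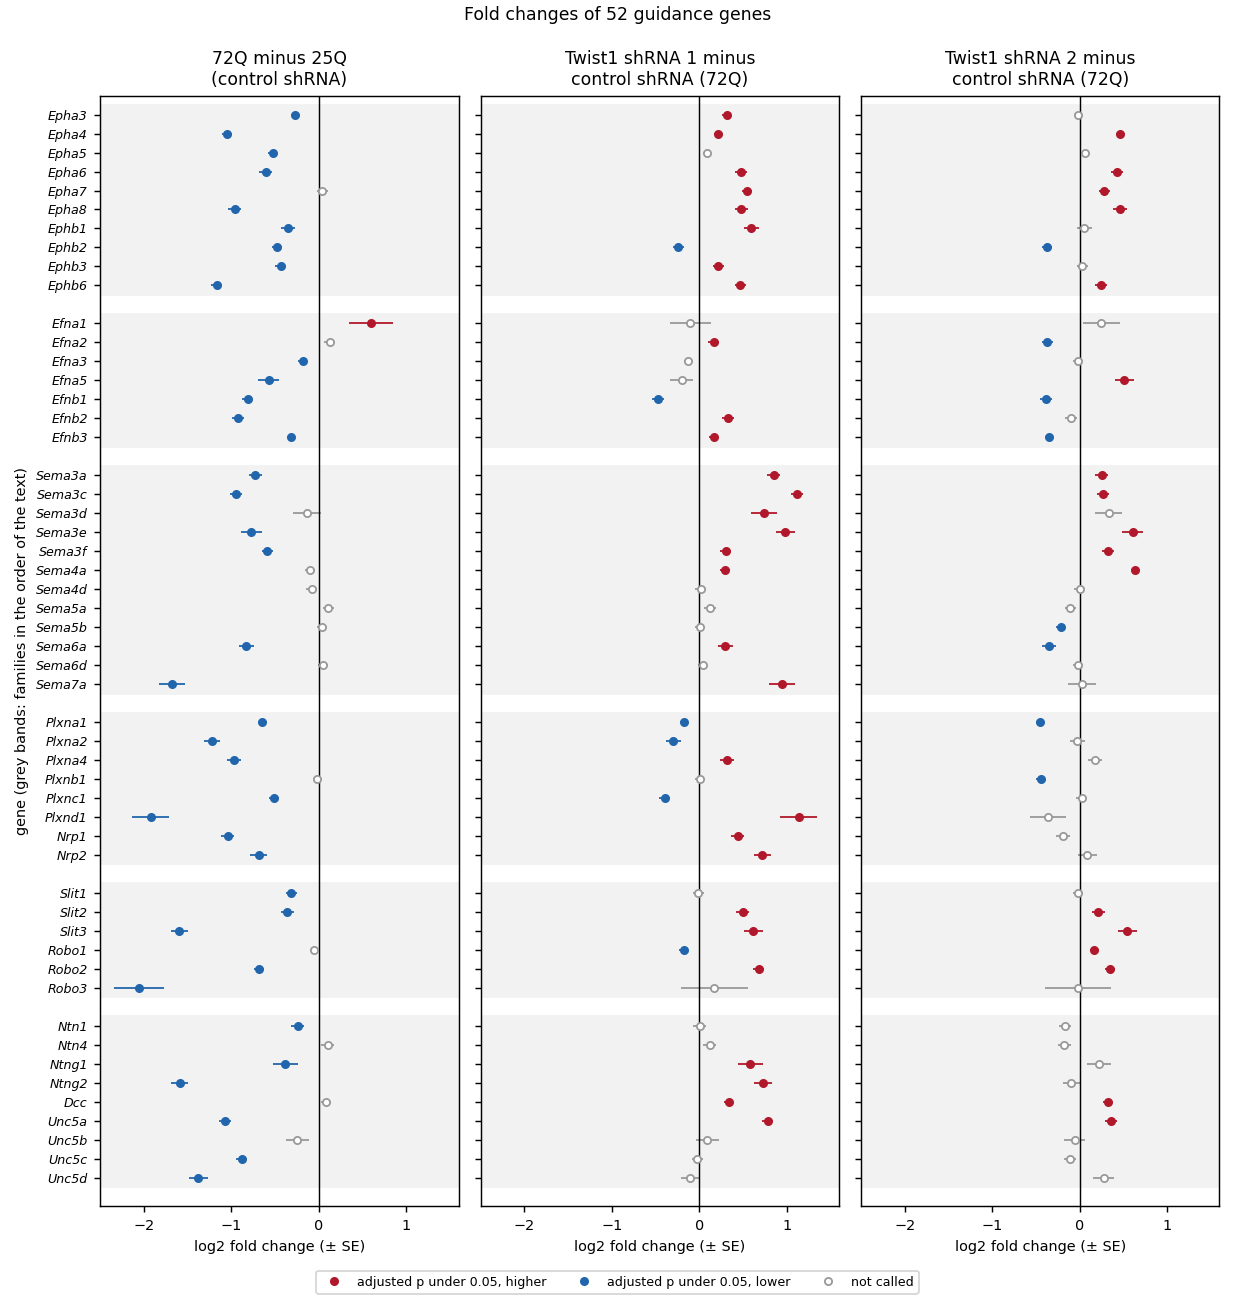
Fitted log2 fold change with its SE for each of the 52 guidance genes (rows, in grey bands by family) in 72Q against 25Q (left), Twist1 shRNA 1 against control in 72Q (middle) and shRNA 2 against control in 72Q (right); filled red and blue points are called higher and lower, open points are not called. Points reach from -2.06 (Robo3) to 0.60 (Efna1) in the left panel, from -0.47 (Efnb1) to 1.14 (Plxnd1) in the middle and from -0.45 (Plxna1) to 0.64 (Sema4a) at the right.

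Semaphorins are grouped in classes by structure. Of the 5 secreted class 3 genes among the 52, Sema3a, Sema3c, Sema3e and Sema3f fell with 72Q and all 5, Sema3d included, rose with shRNA 1. Sema3g, a class 3 gene outside the 52, rose with 72Q (1.73 ± 0.37). Sema3c, which signals through neuropilins, was at 51.8, 63.9, 55.6 and 56.8 CPM with 25Q and 29.3, 30.7, 33.5 and 24.9 with 72Q, then at 59.3, 77.7, 64.7 and 56.8 with shRNA 1 and 37.4, 36.5, 35.9 and 32.6 with shRNA 2. The shRNA 1 libraries were all above the 72Q and shRNA 2 libraries. The log2 changes were -0.95 ± 0.069 with 72Q, 1.12 ± 0.068 with shRNA 1 and 0.27 ± 0.070 with shRNA 2 (adjusted p = 1.79e-12, 4.27e-14 and 0.00254, the last 0.067 without the experiment term). The difference between the hairpins was 0.85 ± 0.066 (adjusted p = 7.5e-12). Sema3a, the repellent of cortical axons that binds neuropilin 1, went from 75.4, 67.2, 68.3 and 70.4 CPM with 25Q to 50.7, 38.8, 47.0 and 34.3 with 72Q. It was at 82.5, 83.1, 72.4 and 69.3 CPM with shRNA 1 and 60.2, 54.0, 46.8 and 42.9 with shRNA 2. Its shRNA 1 libraries overlapped those of 25Q (log2 difference 0.13 ± 0.070, not called with TMM but called higher with upper-quartile factors, without scaling and with those 2 groups alone, adjusted p = 0.00803, 0.00126 and 0.0364). Its change with shRNA 2 (0.26 ± 0.075, adjusted p = 0.00795) was not called without the experiment term (adjusted p = 0.118). Sema3f, which binds neuropilin 2, was at 26.7 ± 1.96, 17.7 ± 0.309, 21.9 ± 0.968 and 22.2 ± 1.19 CPM in the order 25Q, 72Q, shRNA 1 and shRNA 2, and the 4 control libraries with 72Q were below all others.

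Sema3e, the ligand that binds plexin D1 directly, was a low gene with a mean of 1.44 RPKM. It was at 13.0, 12.5, 10.5 and 11.8 CPM with 25Q, 9.94, 5.37, 6.61 and 6.19 with 72Q, 15.5, 13.5, 13.0 and 13.5 with shRNA 1 and 15.1, 8.64, 10.5 and 8.75 with shRNA 2. In all 4 groups the exp107 library stood highest. Log2 changes were -0.77 ± 0.12 with 72Q, 0.99 ± 0.11 with shRNA 1 and 0.61 ± 0.12 with shRNA 2 (adjusted p = 1.38e-06, 2.07e-08 and 7.81e-05). Its receptor Plxnd1 (chromosome 6, 115954811 to 115995005, minus strand) had the largest fall with 72Q of the guidance genes above 1 CPM. The level was 235, 213, 224 and 213 CPM with 25Q, 78.3, 30.0, 87.5 and 51.4 with 72Q, 147, 98.7, 178 and 108 with shRNA 1 and 66.3, 30.6, 50.3 and 41.7 with shRNA 2. The 25Q libraries were all above the shRNA 1 libraries, which were all above those of the other groups. The fitted changes were -1.93 ± 0.21 with 72Q (adjusted p = 1.97e-05), 1.14 ± 0.21 with the first hairpin (adjusted p = 0.00118) and -0.36 ± 0.21 with the other (adjusted p = 0.218; called lower at 0.00415 when the fit held those 2 groups alone, and at 1.56e-08 without the filter on low counts). With shRNA 2 the ligand was called higher and the receptor was not called. The difference between the hairpins was 1.5 ± 0.21 for Plxnd1 (adjusted p = 0.000171) and 0.38 ± 0.11 for Sema3e (adjusted p = 0.00288; 0.106 without the experiment term).

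Sema7a, a membrane-anchored semaphorin that promotes axon growth, and its receptor plexin C1 moved in opposite directions with shRNA 1. Sema7a (chromosome 9, 57940113 to 57962864, plus strand) had the highest mean of the semaphorins, at 23.4 RPKM. It was at 127, 193, 112 and 121 CPM with 25Q, 45.8, 43.7, 52 and 30.2 with 72Q, 83.9, 103, 85.5 and 60.3 with shRNA 1 and 50.5, 49.4, 42.4 and 33.1 with shRNA 2. Unlike most guidance genes, it was highest in the exp108 library with 25Q and with shRNA 1. The changes were -1.68 ± 0.15 with 72Q, 0.95 ± 0.15 with shRNA 1 and 0.03 ± 0.16 with shRNA 2 (adjusted p = 3e-06, 0.000406 and 0.903), and the hairpins differed by 0.92 ± 0.15 (adjusted p = 0.000407). Plxnc1 was at 185, 114, 185 and 189 CPM with 25Q, 133, 85.4, 139 and 113 with 72Q, 92.5, 70.3, 97.7 and 94.4 with shRNA 1 and 134, 99.4, 122 and 119 with shRNA 2. It fell with 72Q (-0.51 ± 0.061) and again with shRNA 1 (-0.40 ± 0.063, adjusted p = 9.42e-06; 0.0783 without the experiment term). The hairpins differed by -0.42 ± 0.062 (adjusted p = 3.15e-06; 0.0619 without the experiment term), in the direction opposite to that of Sema7a.

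Among the transmembrane semaphorins, Sema4a rose with each hairpin, to 76.6, 74.6, 80.1 and 72.9 CPM with shRNA 1 and 92.8, 91.3, 104 and 98.8 with shRNA 2, from 66.0, 54.3, 70.0 and 58.2 with 72Q. No shRNA 2 library overlapped a shRNA 1 library, and shRNA 1 minus shRNA 2 was -0.35 ± 0.052 (adjusted p = 2.05e-06). Sema6a, a ligand of the A plexins that can also act as a receptor, fell with 72Q from 206 ± 35.2 to 117 ± 30.3 CPM (-0.83 ± 0.082). It was at 142 ± 19.5 with shRNA 1 and 90.9 ± 17.2 with shRNA 2, and both changes against 72Q were called with the experiment term (0.30 ± 0.083 and -0.35 ± 0.084) and not without it (adjusted p = 0.272 and 0.162). Sema4d and Sema6d were called in none of the 6 comparisons with TMM factors, at group means of 45.9 to 48.7 and 101 to 107 CPM, but calls for Sema6d depended on scaling. Without scaling beyond library totals it was called higher than 25Q with 72Q, shRNA 1 and shRNA 2 (adjusted p = 0.00202, 0.000421 and 7.45e-05), and with upper-quartile factors so it was with shRNA 1 and shRNA 2 (0.0047 and 0.0257).

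Plexins and neuropilins, the semaphorin receptors, fell in 7 of 8 cases with 72Q. Plxna1 had the highest mean level, 33.5 RPKM, and Nrp2 the lowest, 4.34. Plxna1 was at 475, 375, 482 and 470 CPM with 25Q, 301, 229, 340 and 286 with 72Q, 254, 211, 285 and 275 with shRNA 1, and 233, 166, 221 and 227 with shRNA 2. The 25Q libraries stood above all others, and the exp108 library was lowest in each group. Its changes were -0.65 ± 0.047 with 72Q, -0.17 ± 0.047 with shRNA 1 (adjusted p = 0.00384; 0.334 without the experiment term) and -0.45 ± 0.047 with shRNA 2 (adjusted p = 6.34e-09). An opposite-strand gene shares 10.7% of the Plxna1 exon bases, and whether strand was used in counting is not stated. Plxna2 (chromosome 1, 194619829 to 194816869, plus strand), a Sema6a receptor, fell from 388, 312, 422 and 410 CPM with 25Q to 192, 113, 220 and 143 with 72Q, a change of -1.22 ± 0.090 (adjusted p = 3.69e-08). It was at 138, 114, 153 and 130 CPM with shRNA 1 and 187, 132, 178 and 150 with shRNA 2, with all hairpin libraries below those of 25Q. The change with shRNA 1 (-0.30 ± 0.090, adjusted p = 0.0165) was lost without the shRNA 1 library of exp109a (adjusted p = 0.0546) or exp107 (0.0672), without the 72Q library of exp107 (0.0564) and without the experiment term (0.172). Plxna4, which with neuropilin 1 forms the Sema3a receptor, fell with 72Q by 0.97 on the log2 scale (SE 0.079). It rose with shRNA 1 by 0.32 ± 0.080 (adjusted p = 0.0037, and 0.131 without the experiment term). With shRNA 2 it was not called, but upper-quartile factors (0.0271), no scaling (0.00793), no filter (0.00251), DESeq2 (0.0436) and those 2 groups alone (0.0228) called it higher. The hairpins were called different only without the filter (0.0109) and with those 2 groups alone (0.014).

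The neuropilins are co-receptors without a signalling domain of their own. Nrp1 was at 56.4, 45.3, 57.8 and 60.3 CPM with 25Q, 32.3, 21.1, 30.5 and 23.5 with 72Q, 39.6, 31.3, 39.9 and 33.9 with shRNA 1 and 30.1, 17.7, 25 and 21.2 with shRNA 2. Nrp2 was at 65.0, 49.3, 66.4 and 68.2 CPM, then 41.5, 26.8, 52.4 and 35.2, then 63.7, 55.4, 72.8 and 62.3, and then 47.2, 37.1, 43.3 and 36.4 CPM in the same order of groups. Both fell with 72Q (-1.04 ± 0.074 and -0.69 ± 0.099) and rose with shRNA 1 (0.44 ± 0.076 and 0.72 ± 0.098), and neither was called with shRNA 2 (-0.19 ± 0.079 and 0.09 ± 0.11). Nrp1 was called lower with shRNA 2 without the filter on low counts (adjusted p = 0.0435) and with those 2 groups alone (0.0157). With shRNA 1, Nrp2 was not called against 25Q (log2 difference 0.03, 95% interval -0.17 to 0.23), while Nrp1 stayed lower (-0.60 ± 0.072). Plxnb1, a receptor of class 4 semaphorins, was at 140 ± 16.5, 138 ± 15.9 and 138 ± 14.7 CPM in the first 3 groups and at 104, 95.6, 102 and 103 CPM with shRNA 2, below every other library (-0.44 ± 0.050 against 72Q, adjusted p = 1.81e-08). Its difference of -0.02 between 72Q and 25Q turned to 0.12 without scaling beyond library totals.

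Slits, the secreted repellents, and their robo receptors ranged from a mean of 25.9 RPKM (Slit1) to 0.136 RPKM (Robo3). Slit3 (chromosome 11, 35121224 to 35708507, plus strand) fell most among the slits, from 58.4, 43.0, 70.0 and 64.5 CPM with 25Q to 24.1, 10.6, 27.6 and 17.1 with 72Q (-1.60 ± 0.10, adjusted p = 2.18e-10). It was at 34.6, 20.2, 36.4 and 29.4 CPM with shRNA 1 and 32.6, 22.0, 33.9 and 25.6 with shRNA 2, between the control groups and overlapping the 72Q libraries. Within each experiment both hairpin libraries were above the 72Q library. The changes of 0.62 ± 0.11 and 0.55 ± 0.11 (adjusted p = 9.39e-05 and 0.000357) were not called without the experiment term (adjusted p = 0.0992 and 0.165). Slit2 fell from 22.8 ± 2.75 to 17.8 ± 3.64 CPM with 72Q (-0.36 ± 0.076) and rose to 25 ± 2.42 with shRNA 1 (0.50 ± 0.074). Its rise with shRNA 2 (0.22 ± 0.075, adjusted p = 0.021) had adjusted p-values of 0.105 and 0.117 without the 72Q library of exp109b or exp108, 0.0696 and 0.0517 without the shRNA 2 library of exp107 or exp108, and 0.268 without the experiment term. Slit1 was at 181 ± 28.8 CPM with 25Q and between 143 and 146 CPM on average in the other 3 groups.

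Robo2, a slit receptor of cortical neurons, was at 292, 276, 275 and 284 CPM with 25Q, 205, 149, 191 and 160 with 72Q, 294, 282, 292 and 257 with shRNA 1, and 263, 221, 213 and 198 with shRNA 2. The shRNA 1 libraries overlapped those of 25Q (log2 difference 0.00, 95% interval -0.13 to 0.12), and the 72Q libraries were below both. Log2 changes were -0.69 ± 0.060 with 72Q, 0.68 ± 0.060 with shRNA 1 and 0.35 ± 0.060 with shRNA 2 (adjusted p = 5.07e-10, 8.32e-10 and 4.53e-05). Robo1 was at 99.7 ± 9.69 CPM with 72Q, 88.0 ± 6.92 with shRNA 1 and 112 ± 6.86 with shRNA 2. It was called lower with shRNA 1 and higher with shRNA 2 against 72Q (-0.18 ± 0.050 and 0.17 ± 0.049), and neither call held without the experiment term (adjusted p = 0.14 and 0.183) or with title numbers as the block (0.0759 and 0.0965). The hairpin groups did not overlap, and their difference was -0.35 ± 0.049 (adjusted p = 5.89e-07). Robo3, a divergent robo of commissural neurons, had the lowest fold change of the 52 and was picked out after its values were seen, since its mean was under 1 CPM. It was at 1.39, 2.81, 2.21 and 2.60 CPM with 25Q and 0.488, 0.350, 0.339 and 0.619 with 72Q (-2.06 ± 0.29, adjusted p = 5.14e-08), and at 0.519 ± 0.119 and 0.445 ± 0.133 CPM with the hairpins.

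Netrins and their receptors included the netrin-G proteins, which are lipid-anchored at synapses and do not bind Dcc or Unc5. Ntng2 (chromosome 2, 29194541 to 29253005, minus strand) was at 77.0, 71.6, 89.2 and 89.5 CPM with 25Q, 29.3, 20, 36.7 and 23.6 with 72Q, 48.8, 37.8, 56.3 and 37.7 with shRNA 1, and 26.5, 21.6, 27.1 and 26.2 with shRNA 2. Every 25Q library was above every shRNA 1 library, and those were above every 72Q and shRNA 2 library. The changes were -1.59 ± 0.097 with 72Q, 0.73 ± 0.10 with shRNA 1 and -0.10 ± 0.097 with shRNA 2 (adjusted p = 4.7e-10, 1.41e-05 and 0.497). A listed gene on the same strand shares 14.0% of its exon bases, so a part of its reads may be assigned uncertainly. Ntng1 was at 11.2 ± 1.57, 8.64 ± 2.67, 12.8 ± 1.79 and 10.0 ± 1.43 CPM in the 4 groups. Its fall with 72Q (-0.38 ± 0.14, adjusted p = 0.0224) was lost without any of 4 single libraries, the 72Q libraries of exp109b (0.108) and exp108 (0.0793) and the 25Q libraries of exp109a (0.0727) and exp108 (0.0594), without the experiment term (0.0985) and without scaling (0.0968).

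Of the Unc5 receptors, which carry the repulsive response to netrin, Unc5a had the highest level at 17.2 RPKM. It was at 99.1, 93.2, 104 and 99.0 CPM with 25Q, 52.6, 38.8, 55.3 and 41.6 with 72Q, 82.4, 80.4, 90.8 and 69.5 with shRNA 1, and 65.5, 61.1, 59.3 and 55.4 with shRNA 2. The 4 groups did not overlap, in the order 25Q, shRNA 1, shRNA 2 and 72Q from high to low. Its log2 changes were -1.08 ± 0.067 with 72Q, 0.78 ± 0.067 with shRNA 1 and 0.36 ± 0.068 with shRNA 2 (adjusted p = 4.92e-13, 3.34e-10 and 9.68e-05). Unc5d (chromosome 8, 28646717 to 29219338, minus strand), a receptor of migrating and upper-layer cortical neurons, was at 108, 59.7, 114 and 116 CPM with 25Q and 45.5, 23.5, 50.2 and 34.6 with 72Q. It was at 39.0, 27.5, 42.7 and 31.5 CPM with shRNA 1 and 55.7, 35.4, 52.7 and 39.8 with shRNA 2, with all these libraries below those of 25Q. The change was -1.38 ± 0.11 with 72Q (adjusted p = 1.6e-07), and neither hairpin was called against 72Q (-0.10 ± 0.11 and 0.28 ± 0.12). The change with shRNA 2 was called higher with upper-quartile factors (adjusted p = 0.0328), no scaling (0.014), no filter (7.6e-05) and those 2 groups alone (0.00228). The hairpins differed by -0.38 ± 0.12 (adjusted p = 0.0142), but not without the shRNA 1 library of exp107 (adjusted p = 0.0529) or without the experiment term (0.257). Unc5c fell with 72Q (-0.88 ± 0.063) and was not called with either hairpin against 72Q, at 107 ± 7.04, 58.4 ± 10.7, 57.0 ± 2.62 and 53.9 ± 5.53 CPM in the 4 groups. Dcc, the attractive netrin receptor, was not called between 72Q and 25Q with TMM (41.1 ± 5.45 and 38.9 ± 5.84 CPM) but was called higher with upper-quartile factors (adjusted p = 0.0216) and without scaling (0.000766). It rose to 52.9, 41.0, 58.1 and 56.1 CPM with shRNA 1 and 53.2, 44.0, 55.3 and 52.6 with shRNA 2. Those are log2 changes of 0.34 ± 0.052 and 0.32 ± 0.052 (adjusted p = 3.22e-06 and 8.43e-06, the second 0.0707 without the experiment term). Their ligand Ntn1 was at 26.8 ± 1.82 CPM with 25Q and 22.7 ± 3.56 with 72Q (-0.24 ± 0.072, adjusted p = 0.00492; 0.0997 without the experiment term and 0.194 without scaling) and was not called with either hairpin against 72Q.

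**Figure D4:**
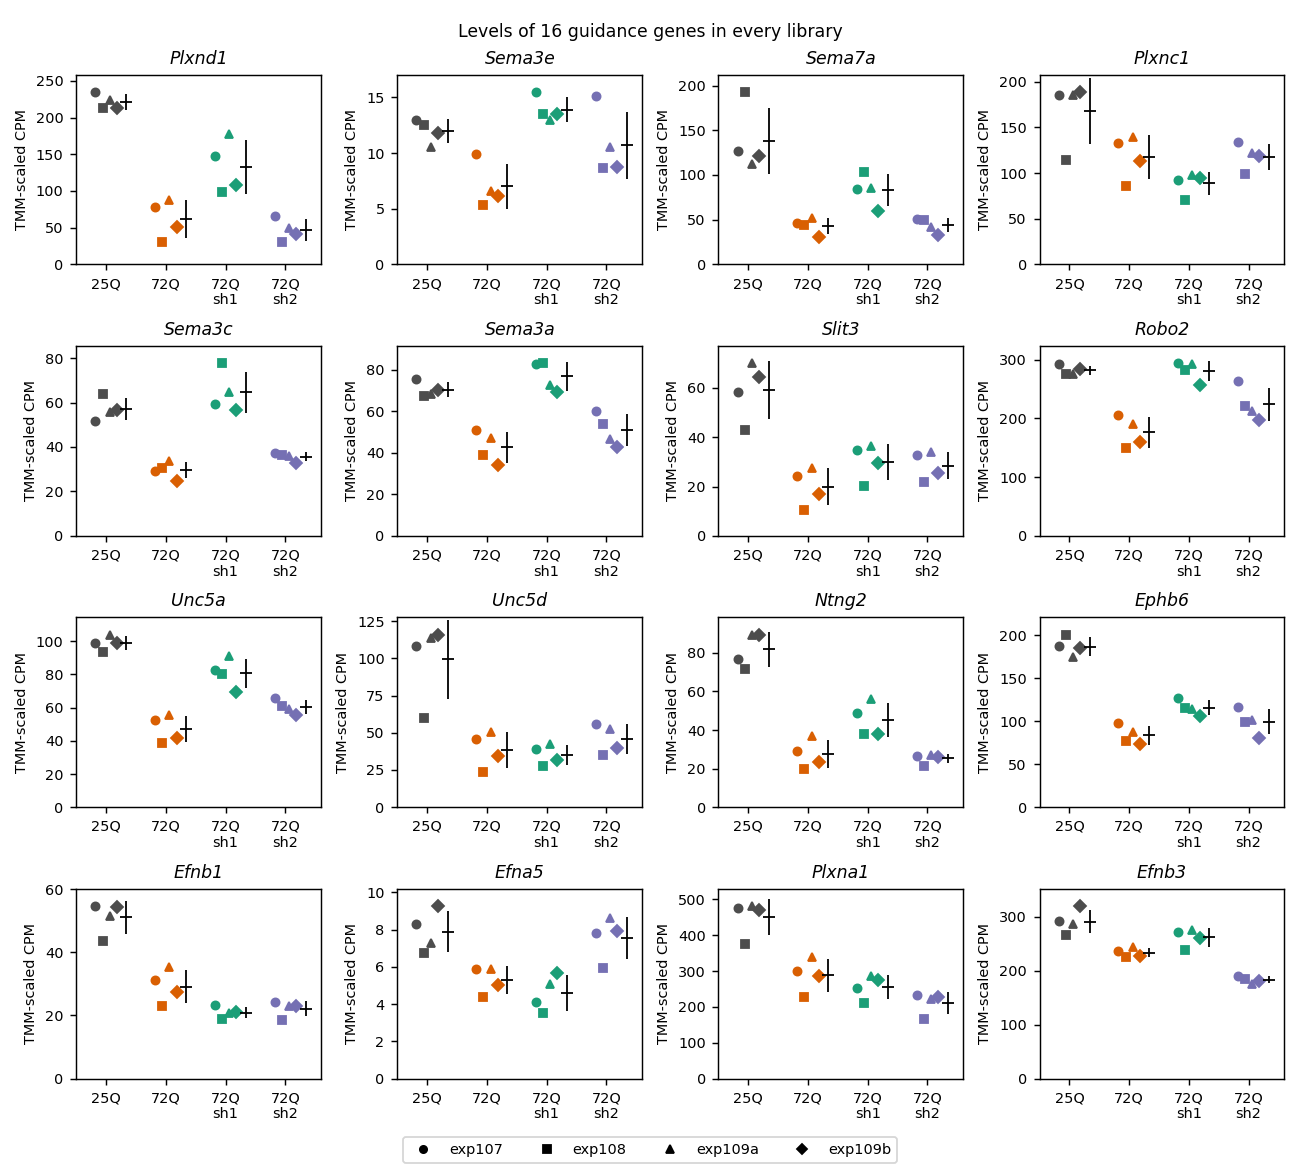
TMM-scaled CPM of 16 guidance genes in every library (points, with a marker for each experiment) in the 4 groups, with the mean and SD of the 4 libraries as a black bar beside each group; sh1 and sh2 are Twist1 shRNA 1 and 2, and each vertical axis starts at 0. Plxnd1, Sema7a and Ntng2 with shRNA 1 lie between the 25Q and 72Q levels. With shRNA 2 none of these genes was called against 72Q in the filtered fit of all 16 libraries, but Plxnd1 was called lower under other settings. Efnb1 and Plxna1 are below 25Q in all 3 groups with 72Q.

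Most other listed genes of the guidance pathways also fell with 72Q, but further members of the same families did so less often. Of 101 further genes listed by name, 100 matched the files and 96 were tested, and 64 fell and 13 rose with 72Q, with a median log2 fold change of -0.31, where 27.8% of all tested genes fell and 29.3% rose. The median was -0.535 for other cues and co-receptors, -0.268 for cytoplasmic effectors and -0.141 for further members of the same families. By list, 27 of 31 other cues and co-receptors fell and 1 rose, 31 of 50 cytoplasmic effectors fell and 10 rose, and 6 of 15 further members of the same families fell and 2 rose. The lowest were Rtn4rl1, a Nogo receptor homologue (49.6 ± 1.90 to 12.9 ± 2.89 CPM, -1.95 ± 0.12), Ngef, an ephexin that acts downstream of Epha4 (161 ± 5.22 to 61.4 ± 13.3 CPM, -1.42 ± 0.11), and Flrt2, a ligand of Unc5d (98.6 ± 9.22 to 37.5 ± 6.21 CPM, -1.40 ± 0.063). The highest were Sema3g (0.287 ± 0.116 to 1.24 ± 0.728 CPM, 1.73 ± 0.37), the guanine nucleotide exchange factor Vav3 (2.80 ± 0.722 to 4.21 ± 0.528 CPM, 0.58 ± 0.16) and the adaptor Grb10 (54.7 ± 5.35 to 81.3 ± 6.48 CPM, 0.57 ± 0.061). With shRNA 1, 37 of the 96 rose and 26 fell, where 22.7% and 23.6% of all tested genes did. With shRNA 2, 17 rose and 41 fell, where 20.2% and 21.5% of all did. The 26 that fell with shRNA 1 and the 17 that rose with shRNA 2 are near those background shares. Between the hairpins 49 were higher with shRNA 1 and 19 were lower, where 27.3% and 25.9% of all genes were.

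The guidance genes are long, with a median span of 147.1 kb against 22.7 kb over all tested genes, and range from 6.11 kb to 1092.3 kb. Across the 52 genes the span and the log2 fold change with 72Q had a Spearman correlation of 0.04, against -0.12 across all tested genes, where genes share libraries and are not independent replicates. For shRNA 1 against 72Q the values were 0.10 and 0.12, for shRNA 2 against 72Q 0.35 and -0.04, and for shRNA 1 against shRNA 2 -0.14 and 0.14. Against 25Q they were 0.13 and -0.05 with shRNA 1 and 0.23 and -0.14 with shRNA 2.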

How the data were processed

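Mouse cortical neuron cultures were profiled by RNA sequencing after Ribo-Zero depletion, per the labels' protocols. The submitters' processing notes name STAR 2.0.4b, featureCounts 1.45 and the build GRCm38; the treatment of strand and of multi-mapping reads was not given in the sources used here. The authors deposited raw read counts, CPM and RPKM per gene; the deposited CPM equals the count over the library total and the deposited RPKM equals that CPM per kilobase of listed length. Counts were the input of every test.

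Genes passing filterByExpr (15103) entered edgeR 4.0.16 in R 4.3.3: TMM factors, glmQLFit with robust estimation and glmQLFTest over all 16 libraries with terms for group and experiment, Benjamini-Hochberg adjustment and a threshold of 0.05. Log2 fold changes use a prior count of 2, and the common biological coefficient of variation was 5.24%. Deviations of libraries of the same experiment correlated in every pair of groups (r from 0.223 to 0.612), so the experiment from the description labels pairs the libraries. Numbers in the sample titles gave -0.218 to 0.612 and do not all match the experiments. The test was also run on simulated counts with 1 coefficient of variation for every gene and no experiment effect. The libraries here do differ by experiment, so that run cannot show how the test behaves on them. Alternatives were DESeq2 1.42.0, its size factors, upper-quartile factors, no scaling, no filter, no experiment term, title numbers as block, the 2 groups alone, and each library or experiment left out.

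The members and lists were chosen with earlier results of these data known. Genes were named by rule: the up to 6 highest and 6 lowest called with 72Q against 25Q and with the same sign in all 4 experiments, up to 6 in each direction called with both hairpins, the 3 highest and lowest between hairpins, and the highest RPKM of each family, at a mean of at least 1 CPM, plus genes never called. Further members are given as partners of these or of their family, chosen after their values were seen. Gene symbols are those of GENCODE M21, promoters those of RefSeq.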

Additional observations from a re-analysis of the deposited data

Results flagged for a closer look

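In 12 of 208 groups of 4 libraries (52 genes in 4 groups), 1 library stood apart from the other 3 by Dixon's criterion at the 95% level; chance gives about 1 in 20 such groups. The exp108 library with 25Q was the low one for Epha6 (34.2 CPM, others 47.5 to 50.2), Efnb2 (111, others 142 to 146), Plxna1 (375, others 470 to 482), Plxnc1 (114, others 185 to 189), Nrp2 (49.3, others 65.0 to 68.2), Robo1 (85.4, others 107 to 112) and Unc5d (59.7, others 108 to 116). With 25Q the exp107 library was the high one for Epha3 (87.3, others 75.4 to 76.3). With shRNA 2 the exp107 library was high for Ephb2 (109, others 87.0 to 90.3) and Robo3 (0.645, others 0.371 to 0.383), and the exp108 library was low for Ntng2 (21.6, others 26.2 to 27.1). With 72Q the exp109a library was low for Ntn4, a basement-membrane netrin (17.9, others 20.6 to 20.9).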

How the results depend on the processing

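The count of guidance genes lower with 72Q than with 25Q was 35 to 39 under all alternatives tried. The count higher (1) was 4 with upper-quartile factors, 9 without scaling, 0 with DESeq2 and 0 to 1 with a library or experiment left out. Without the replicate block (the experiment term), 1 gene fell with shRNA 1 (6 with the block), 10 rose with shRNA 2 (17), and between the hairpins 18 were higher (28) and 3 lower (7); the other counts stayed within 1.5 times. Calls over all genes also shrank without the block, from 3565 to 2317 lower with shRNA 1 and from 3057 to 1691 higher with shRNA 2. Between the hairpins they went from 4116 to 2789 higher and from 3914 to 2715 lower. A replicate block by title number gave 2 lower with shRNA 1 and 4 lower between the hairpins, where 2693 and 3089 of all genes were lower. Against 25Q, the count higher with shRNA 1 (9) was 16 with upper-quartile factors and 18 without scaling, and that with shRNA 2 (5) was 8 without scaling. With single libraries or experiments left out, the counts ranged from 37 to 39 lower with 72Q, 29 to 30 higher and 5 to 7 lower with shRNA 1, 16 to 20 and 8 to 10 with shRNA 2, 24 to 30 and 5 to 8 between the hairpins, 6 to 13 and 26 to 30 for shRNA 1 against 25Q, and 4 to 5 and 35 to 38 for shRNA 2 against 25Q.

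Directions that turned did so without scaling beyond library totals: Plxnb1 at 0.12 for both 72Q and shRNA 1 against 25Q, and, for shRNA 2 against 25Q, Epha6 at 0.033, Efna3 at 0.005 and Sema5b at 0.033. That setting moved the median of all genes to 0.16, 0.13 and 0.22 in these 3 comparisons. The cause of the other changes was not tested. Over all members, comparisons and alternatives, 8385 values kept their direction and side of the threshold, 220 lost a call, 123 gained one and 5 turned. Robo3 and Efna1, with means under 2 CPM in most groups, had SEs of 0.29 and 0.25 in 72Q against 25Q, and Plxnd1, a far higher gene, had 0.21; the part of depth in these errors was not tested.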
